A study of Musca domestica with 10 samples.

Results

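Whole house fly (Musca domestica) embryos at the gastrula and germ band extension stages, called the later period here, were compared with embryos at the syncytial and cellular blastoderm stages, called the blastoderm period. The comparison used 8 of the 10 libraries of the series: 2 biological replicates of each of the 4 stages, each made from 100 embryos, with 4 libraries per period. The other 2 libraries, from the dorsal closure stage, took no part in choosing genes and served to follow the chosen genes further. The labels name no strain, treatment or genotype, so stage and replicate number are all that distinguishes the groups. Genes were described where all 4 later libraries lay above, or all 4 below, all 4 blastoderm libraries in CPM, the reads of a gene scaled to a library of fixed size. Of 15803 gene rows, 2797 separated the periods in this way, 1543 higher and 1254 lower in the later period. After a filter on low counts 9749 genes could be tested, and 2654 of the separated genes were among them (1411 higher, 1243 lower). The 132 higher and 11 lower genes that failed the filter are counted but not described.

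In a fly embryo the first nuclear divisions run on RNA that the mother laid down in the egg. During the blastoderm stages that maternal RNA is progressively degraded while the embryo's own genome is switched on, a handover known as the maternal-to-zygotic transition. Cells are then enclosed by membranes, the mesoderm and endoderm fold inwards at gastrulation, and the germ band, the future trunk, elongates. Bulk counts from whole embryos do not separate transcription from decay, and fewer cells of a type cannot be told apart from less RNA per cell. The files name genes by MDOA identifiers, none of which matched the gene table available (0 of 15803), so no gene name, function or sequence is given and few identifiers are printed.

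The shallowest of the 8 libraries, syncytial blastoderm replicate 1, held 16288442 gene reads, and the other 7 held 42479342 to 83604709. With 3 reads a gene stood at 0.139 CPM in the former and at 0.0366 to 0.0724 CPM in the latter. More genes were counted at 1 CPM in the later libraries: 7939 ± 272.6 genes reached 1 CPM there (SD, n = 4 libraries) and 7281 ± 166.2 in the blastoderm period (n = 4), a difference with p = 0.0556 in a two-sided exact permutation test within the replicate series, the smallest p its 36 arrangements allow. Permuting freely over the 8 libraries, without regard to the series, the exact p was 0.0286, again the smallest possible. The order held within each replicate series, from 7128 and 7419 genes to 7751 and 7967 in replicate 1 and from 7146 and 7430 to 7724 and 8314 in replicate 2. The number of genes at 10 CPM or more was 5858 ± 146.9 and 6003 ± 121.6 (exact permutation p = 0.222 within series). The share of reads outside genes did not separate the periods (18.7% ± 3.56 later and 18.62% ± 6.04 in the blastoderm, exact permutation p = 0.889 within series). The labels call the samples of a stage biological replicates without saying how they were collected, so the p-values measure the spread between these samples.

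Expression differed between the periods for 4460 of the 9749 tested genes (45.7%) in edgeR's quasi-likelihood test with 1 coefficient per stage and the replicate number as a block, at a Benjamini-Hochberg adjusted p under 0.05. Of these, 2238 rose into the later period (23% of tested genes) and 2222 fell (22.8%). The median log2 fold change was 3.8 for called rises and -1.48 for called falls. A gene scarce in the blastoderm could pass the filter through its later libraries alone, so the median rise includes genes let in where they were high. Some separated genes, described below, stood at 10 CPM or more in every library of their lower period. Their median was 0.941 for rises and -1.24 for falls. Where a gene had few blastoderm reads, the fitted rise is sensitive to edgeR's prior count. A change of 4-fold or more was reached by 1518 rises and 659 falls, and 425 rises and 526 falls were under 2-fold. Without the replicate block 1274 genes rose and 1094 fell. The falls numbered 1458 without gastrula replicate 2, and a 2-group design, in which differences between stages of a period count as spread, gave 1121 rises and 1441 falls. The near-even split of calls depended on scaling: rises made up 50.2% of calls with TMM and 40% with total counts alone, and 60.1% with DESeq2 size factors.

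The stricter criterion, in which no library of one period crossed any of the other, was met by 14.5% of tested genes on the higher side and 12.8% on the lower side. Rises made up 53.2% of these genes, 45% with total counts and 62.4% with DESeq2 size factors. Most of the separated genes also passed the test: 1294 of the 1411 higher genes (91.7%) and 1169 of the 1243 lower genes (94%), against 23% and 22.8% of all tested genes. The test and the separation use the same libraries, so these shares are not independent of each other. In the other direction, 57.8% of the called rises and 52.6% of the called falls separated without overlap. The remaining 944 rises and 1053 falls had at least 1 library on the wrong side. In 487 of those 944 (51.6%) and 602 of those 1053 (57.2%), both later libraries were still beyond both blastoderm libraries within each replicate series. In these genes the overlap arose between series. Over all tested genes, separated ones included, this order held in 22% on the higher and 21.1% on the lower side. The test with its block used the same libraries, so these counts are a description. Leaving out some 1 library would separate 681 of the 944 and 734 of the 1053, most often cellular blastoderm replicate 1 (341 and 320).

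**Figure D1:**
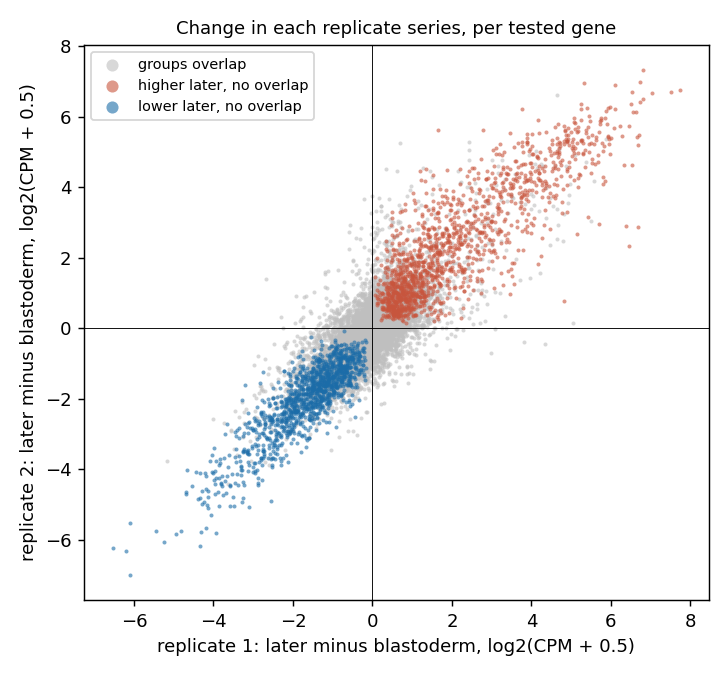
Change from the blastoderm to the later period in replicate series 1 (x axis) and 2 (y axis), as the difference of mean log2(CPM + 0.5), with 1 point per tested gene; genes whose periods did not overlap are coloured. The series correlated at r = 0.887 across genes, 82.4% of genes moved the same way in both, and the separated genes lie in the corners where both series moved the same way.

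The change was present in both replicate series, as the plot of the series shows. Later minus blastoderm differences in log2(CPM + 0.5) correlated at r = 0.887 across the 9749 genes, which are not independent replicates, and 82.4% of genes had the same sign in both. The median difference of the 1411 higher genes was 1.57 in replicate 1 and 1.97 in replicate 2. For the 1243 lower genes it was -1.49 and -1.8. Over all tested genes the medians were 0.0488 and 0.0013. The separation fixes the direction in each series for these genes, so only the sizes carry information.

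The gap between the periods had a wider median for genes that were higher later, a group with many genes scarce in the blastoderm. The gap was taken as the lowest library of the higher period divided by the highest library of the lower period, with the divisor set to no less than what 3 reads are worth in the shallowest library of the lower period (0.139 CPM in the blastoderm, 0.0724 CPM later), a floor chosen after the data were seen. Its median was then 1.64 for the higher and 1.47 for the lower genes. It was at least 2-fold in 573 higher and 344 lower genes, at least 10-fold in 109 and 12, and at least 100-fold in 1 and 0. For 353 of the higher genes every blastoderm library was under that floor, 90 of them without a single blastoderm read, so their separation rests on few reads. At the edge of the criterion, 161 higher and 195 lower genes separated by less than 1.1-fold with no such floor, while 244 and 240 genes missed separation with a ratio between 0.9 and 1. The fitted median log2 fold change was 4.48 for the higher genes, or 4.33 with the 90 genes set to the bound that 3 counts over the 4 blastoderm libraries allow, and -1.75 for the lower genes. Over all tested genes it was 0.0419. The filter bears on this contrast, since genes scarce in the blastoderm could pass it through their later libraries alone. Under 1 CPM in all 4 libraries of the lower period stood 771 higher but only 89 lower genes. The order of sizes reversed among genes at 10 CPM or more in every library of the lower period. Their median log2 fold change was 0.941 for 237 higher and -1.24 for 572 lower genes. No gap was taken by level, so a wider gap at equal level is not shown.

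Together the separated genes took up a changing share of the embryo's messenger RNA reads. The 1411 higher genes held 3.81% and 4.28% of gene reads in the syncytial blastoderm libraries and 6.51% and 5.65% at cellular blastoderm. Their share was 12.1% and 10.5% at gastrula and 14.3% and 16.3% at germ band extension. The 1243 lower genes went the opposite way: syncytial blastoderm libraries gave them 14.8% and 14%, and cellular blastoderm libraries 7.53% and 8.17%. They held 3.44% and 2.95% at gastrula and 3.46% and 2.13% at germ band extension. The lower genes lost more percentage points before cellular blastoderm than after it, whereas the higher genes gained most of theirs after it. These shares describe genes chosen on the same libraries and carry no test.

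**Figure D2:**
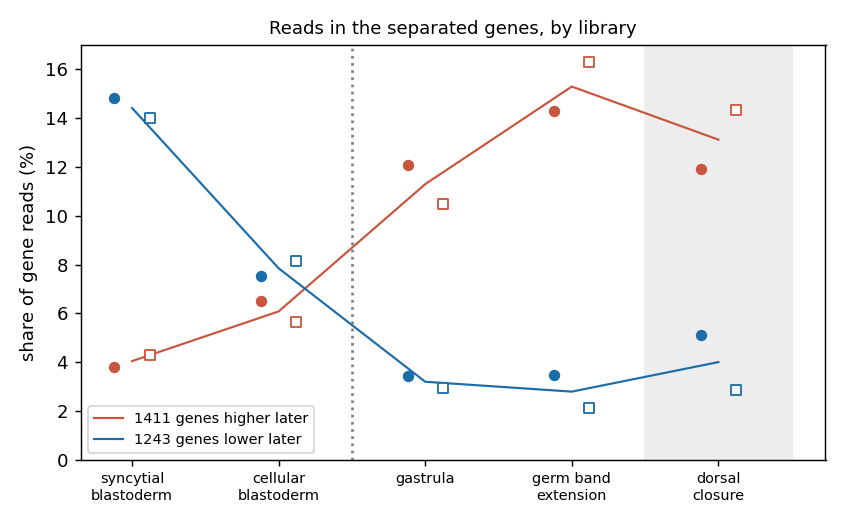
Share of all gene reads (%) held by the 1411 genes higher and the 1243 genes lower in the later period, by stage; filled circles are replicate 1, open squares replicate 2, lines join stage means, the dotted line divides the periods and the dorsal closure libraries (shaded) were not used to choose the genes. The higher genes climb from 3.81% to as much as 16.3% at germ band extension, and the lower genes drop from 14.8% to as little as 2.13%.

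The genes that were higher later fell into 3 classes by their blastoderm level. The largest class, 771 genes (54.6%), was under 1 CPM in all 4 blastoderm libraries. Most of these genes remained scarce: their median CPM was 0.707 and 0.713 in the gastrula libraries and 1.35 and 2.7 in those of germ band extension, and 17 of them reached 10 CPM in all 4 later libraries. Their median log2 fold change was 5.4, or 5.08 with the genes without blastoderm reads at their bound, and 705 passed the test. The class held 0.119% to 1.02% of gene reads in the later libraries, with the highest share in germ band extension replicate 2.

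An intermediate class of 403 genes (28.6%) went from scarce to moderately abundant. Its median CPM was 0.277 and 0.359 in the syncytial and 3.71 and 3.68 in the cellular blastoderm libraries. The gastrula libraries had medians of 23.1 and 19.7 CPM and the germ band extension libraries 30.1 and 43.8 CPM. In this class 391 genes passed the test, 263 stood at 10 CPM or more in all 4 later libraries and 36 at 100 CPM or more, with a median log2 fold change of 4.65. The third class of 237 genes (16.8%) was already at 10 CPM or more in every blastoderm library and changed little in proportion, with a median log2 fold change of 0.941, of which 198 passed the test. It nevertheless accounted for most of the added reads, with 3.7% and 4.19% of gene reads in the syncytial blastoderm libraries and 10.2% and 11.4% in those of germ band extension.

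Few of the genes that were lower later ended near 0. In all, 89 of the 1243 (7.16%) were under 1 CPM in all 4 later libraries, and these were mostly scarce to begin with, with median CPM values of 2.82 and 3.28 at syncytial blastoderm. Another 582 genes (46.8%) had median CPM values of 44.9 and 42.5 at syncytial blastoderm, against 6.71 and 4.67 at germ band extension, a median log2 fold change of -2.27. The remaining 572 genes (46%) were still at 10 CPM or more in every later library. The corresponding medians were 85.1 and 93.3 CPM early and 32.5 and 27.8 CPM at germ band extension, a median log2 fold change of -1.24. The 3 classes passed the test in 76, 556 and 537 genes. In comparison, of the 4543 genes at 10 CPM or more in all 8 libraries, 809 (17.8%) separated the periods, against 27.2% of all tested genes.

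**Figure D3:**
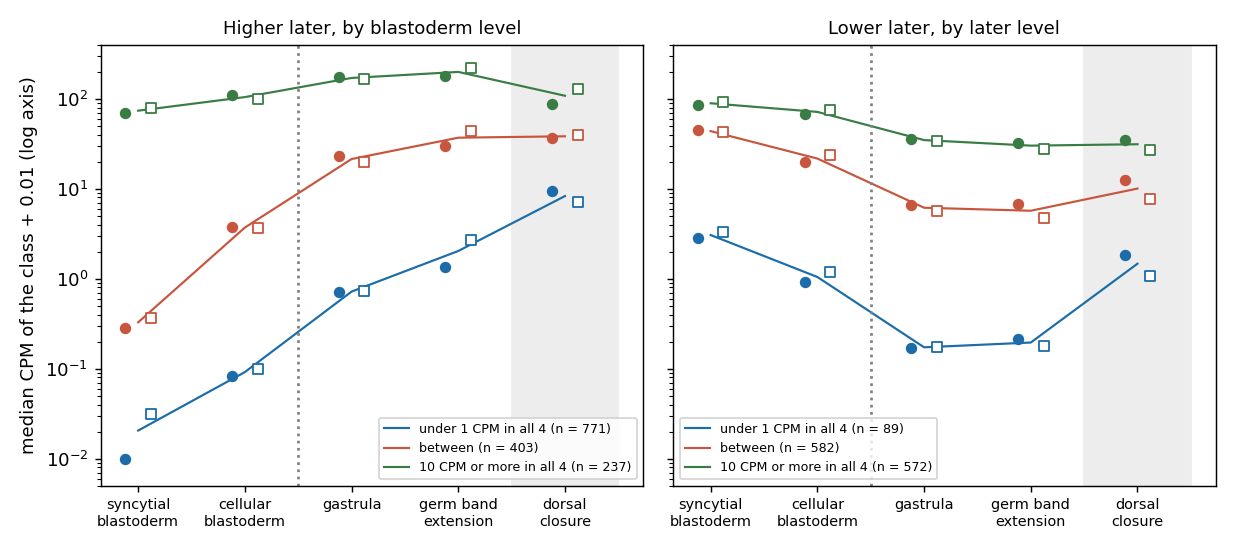
Median CPM (plus 0.01, log axis) of the separated genes in each library, for genes higher later (left, classed by their 4 blastoderm libraries) and lower later (right, classed by their 4 later libraries); filled circles are replicate 1 and open squares replicate 2. The intermediate class on the left goes from 0.277 CPM to 43.8 CPM, while the most abundant class on the right goes from 93.3 CPM to 27.8 CPM.

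The largest single step lay between cellular blastoderm and gastrula for most separated genes. It lay there for 779 of the 1411 higher genes (55.2%) and 941 of the 1243 lower genes (75.7%), judged on stage means of log2(CPM + 0.5). Since the criterion itself requires a gap at that boundary, these shares are a description. The step from syncytial to cellular blastoderm was the largest for 263 higher (18.6%) and 241 lower genes (19.4%). The step from gastrula to germ band extension was the largest for 369 higher genes (26.2%) and 61 lower genes (4.91%). Of these 369 genes 331 were under 1 CPM in all 4 blastoderm libraries and could pass the filter through their later libraries alone. The added 0.5 CPM also shrinks steps between such low levels. At 10 CPM or more in every library of the lower period, that step was the largest for 10 of 237 higher and 38 of 572 lower genes. Stage means were higher at each successive stage in 883 higher genes (62.6%) and lower at each in 579 lower genes (46.6%). The median step of the higher genes was 0.31, 1.11 and 0.558 log2 units in succession, and that of the lower genes -0.523, -1.26 and -0.13. The median step of all tested genes was 0.055, 0.0117 and 0.039.

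Single steps were tested in the same edgeR fit. Gastrula was called above cellular blastoderm in 500 of the 1411 higher genes (35.4%, against 5.87% of tested genes), and below it in 554 of the 1243 lower genes (44.6%, against 7.2%). These steps use the libraries that defined the groups. The step between the blastoderm stages sets no period against the other, but its 4 libraries also entered the choice of genes, so the shares below are a description as well. In it, 285 of the higher genes (20.2%) had already risen at cellular blastoderm, against 6% of tested genes, and 4 had fallen. Among the lower genes 207 (16.7%) had already fallen, against 7.88% of tested genes, and 1 had risen. Without the replicate block these counts were 155 and 37, and with DESeq2 the falls numbered 340. The falls numbered 70, 78, 39 and 108 when syncytial blastoderm replicate 1 and 2 and cellular blastoderm replicate 1 and 2 were left out in turn.

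Between gastrula and germ band extension 0 of the separated genes passed edgeR's test, and 4 of the 9749 tested genes rose (0.041%) and 1 fell (0.0103%). At an unadjusted p under 0.05 stood 299 higher and 101 lower genes, of 1073 in all. The germ band extension libraries were unequal: replicate 2 was the highest of the 4 later libraries for 893 of the 1411 higher genes and replicate 1 for 282. The lowest later library was gastrula replicate 1 for 474 of them and gastrula replicate 2 for 613.

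The largest changes between the periods, among separated genes that passed the test with at least 20 CPM in the higher period and 10 reads in the lower, were seen in 4 identifiers. MDOA003795 was without reads in both syncytial blastoderm libraries, and cellular blastoderm gave 0.0122 and 0.271 CPM. Gastrula libraries stood at 40.2 and 13.4 CPM and germ band extension libraries at 64.6 and 50.4 CPM. The lowest later library was 49.3 times the highest blastoderm library. The fitted change was 11.13 ± 2.04 log2 units (SE; adjusted p = 0.00011 in edgeR), a size that depends on the prior count because the 4 blastoderm libraries held 1 and 12 reads in cellular blastoderm and none before. It was 10.17 without cellular blastoderm replicate 1, 12.87 without replicate 2 of that stage and 11.93 without gastrula replicate 2. MDOA006673 was likewise without reads at syncytial blastoderm and stood at 0.317 and 0.587 CPM at cellular blastoderm. Gastrula libraries had 42.9 and 16.5 CPM and germ band extension libraries 103.8 and 64.3 CPM. The fitted change was 10.48 ± 1.25 log2 units (adjusted p = 7.2e-06 in edgeR). For this gene too the size depends on the prior count, and it was 7.84 with the 2-group design and 9.26 with limma-voom. The SE of both genes comes from the change before the prior count is added. In both genes the replicate 1 library was above the replicate 2 library at each later stage.

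MDOA010389 stood at 333.1 and 194.3 CPM at syncytial blastoderm, the earliest stage sampled, and at 15.1 and 15.8 CPM at cellular blastoderm. It was between 0.166 and 0.338 CPM in the 4 later libraries, with a fitted change of -7.95 ± 0.31 log2 units (adjusted p = 2.7e-06 in edgeR). MDOA007880 followed the same course, from 223.6 and 361.6 CPM through 10.8 and 38.5 CPM to between 0.174 and 0.435 CPM, with a fitted change of -7.94 ± 0.35 log2 units (adjusted p = 2.7e-06 in edgeR). Most of the loss of each transcript in CPM preceded cellular blastoderm, yet the fold change was larger at the next step. For MDOA010389 the log2 fold change was -4.05 ± 0.36 from syncytial to cellular blastoderm (edgeR adjusted p = 7e-05) and -6.29 ± 0.43 from cellular blastoderm to gastrula (edgeR adjusted p = 0.00064).

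**Figure D4:**
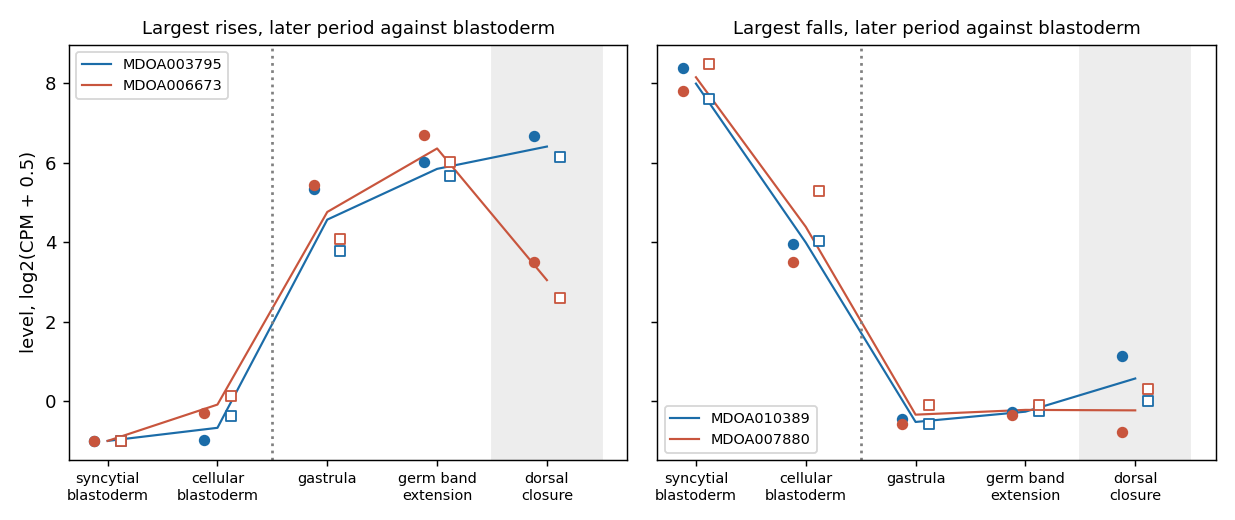
Level of the 2 genes with the largest rise (left) and the 2 with the largest fall (right) between the periods, as log2(CPM + 0.5) by stage; filled circles are replicate 1, open squares replicate 2, lines join stage means, and dorsal closure is shaded. Both genes on the left are at or near 0 CPM through the blastoderm stages, and both on the right leave 194.3 to 361.6 CPM for levels under 1 CPM at gastrula.

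Between the blastoderm stages, 4 further separated genes were the largest called changes among those with at least 20 CPM in the higher and 10 reads in the lower stage. This limit leaves out genes without reads at syncytial blastoderm, some of which had larger fitted rises. MDOA002906 stood at 0.0462 and 1.16 CPM at syncytial blastoderm and at 332 and 298 CPM at cellular blastoderm, a fitted change of 9.45 ± 0.87 log2 units (SE; adjusted p = 0.00012 in edgeR). Its size rests on single libraries, at 8.79 and 12.28 without syncytial blastoderm replicate 1 and 2 and 8.35 and 10.52 without cellular blastoderm replicate 1 and 2. Its later libraries lay at 553.7, 1713, 465.6 and 1617 CPM, with replicate 2 above replicate 1 at both stages. MDOA012604 stood at 0.324 and 0.549 CPM and then at 170.7 and 262.1 CPM, a fitted change of 9.03 ± 0.53 log2 units (adjusted p = 1.2e-05 in edgeR). Neither gene changed past the threshold from cellular blastoderm to gastrula (edgeR adjusted p = 0.16 and 0.053). In the opposite direction MDOA008702 fell from 81.1 and 74.1 CPM to 1.27 and 1.31 CPM, a fitted change of -5.92 ± 0.57 log2 units (adjusted p = 0.00013 in edgeR). MDOA000695 fell from 192.8 and 57.1 CPM to 3.05 and 1.53 CPM, and its later libraries were at 0.0483 to 0.731 CPM. Its fitted change was -5.6 ± 0.65 log2 units (adjusted p = 0.00043 in edgeR). At dorsal closure MDOA002906 stood at 105.8 and 711.5 CPM and MDOA012604 at 14.4 and 255.7 CPM. MDOA008702 was back at 47.4 and 6.76 CPM there, and MDOA000695 was at 0.0291 and 0 CPM.

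Dorsal closure showed which of these differences outlasted the later period. Both dorsal closure libraries remained outside the blastoderm range for 1092 of the 1411 higher genes (77.4%), and both had returned to it or beyond for 155 (11%). Among the 1243 lower genes 722 (58.1%) remained below the blastoderm range and 279 (22.4%) had returned. No such share was taken over all tested genes, so persistence is not shown to be particular to the separated genes. These shares and those by class were taken with TMM scaling alone, and the dorsal closure calls described below moved with scaling. Dorsal closure differed widely in general, with 9903 and 9619 genes at 1 CPM or more, against 7128 to 7430 in the blastoderm libraries. Persistence was most frequent among the genes scarcest in the blastoderm: of the 771 higher genes under 1 CPM there, 696 stayed above it and 21 returned (2.72%). Of the 237 higher genes that were abundant throughout, 77 stayed above and 103 returned (43.5%). Among the lower genes the order was the other way round. Of the 89 genes under 1 CPM in the later period 47 returned (52.8%), while of the 572 that were still at 10 CPM or more 94 did so (16.4%). These differences between classes were not tested, and the class itself sets how far a gene had to move to return. Higher genes under 1 CPM had a median log2 fold change of 5.4 to undo, and those at 10 CPM or more 0.941. A lower gene had returned once both dorsal closure libraries reached its lowest blastoderm library. The median of that library was 0.756 CPM in the class under 1 CPM and 59.2 CPM in the class at 10 CPM or more.

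**Figure D5:**
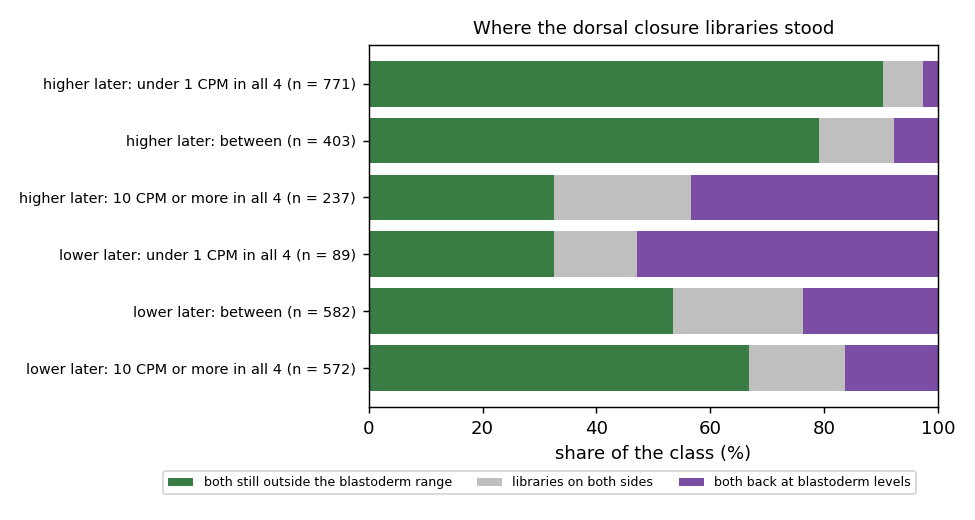
Share of each class of separated genes (%) in which both dorsal closure libraries were still outside the range of the blastoderm libraries, both were back at or past the nearest blastoderm library, or the libraries fell on both sides. Of the higher genes, 2.72% of those under 1 CPM in the blastoderm and 43.5% of those at 10 CPM or more were back. No share over all tested genes was taken, and the class itself sets how far a gene had to move to be back. Levels were scaled by TMM alone.

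Dorsal closure was tested against the mean of gastrula and germ band extension in a fit of all 10 libraries with the replicate block. Of the higher genes 453 rose further (32.1%, against 21.5% of tested genes) and 260 fell (18.4%, against 29.4%). Of the lower genes 315 rose (25.3%) and 319 fell further (25.7%). Both splits moved with scaling: DESeq2 size factors gave 539 rises and 181 falls among the higher genes and 422 and 221 among the lower ones, and DESeq2 gave 547 and 212, and 460 and 260. The contrast shares the later libraries with the choice of genes. Of the 453 further rises 358 belonged to the class of 771 genes under 1 CPM in the blastoderm. Of the 260 falls 145 belonged to the class of 237 genes at 10 CPM or more. No such share was taken over all tested genes of the same level, so neither count is shown to be particular to the separated genes. Without the replicate block the falls numbered 163 among the higher and 198 among the lower genes. Without dorsal closure replicate 1 the rises numbered 268 among the higher and 181 among the lower genes, and the falls 169 among the higher ones. Without dorsal closure replicate 2 the falls among the lower genes numbered 193. The falls among the higher genes were 166 without gastrula replicate 2, 172 without germ band extension replicate 1 and 171 without its replicate 2. Those among the lower genes were 194 without gastrula replicate 2 and 201 without germ band extension replicate 1.

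Reversals at dorsal closure were large in some genes. MDOA000203 had no reads at syncytial blastoderm, stood at 4.97 and 8.42 CPM at cellular blastoderm and at 34.4 to 77.3 CPM in the later libraries, and was at 0.0728 and 1.24 CPM at dorsal closure. The fitted change was -7.21 ± 0.95 log2 units (SE; adjusted p = 0.00048 in edgeR). MDOA004527 was also without reads at syncytial blastoderm, reached 72.9 to 234.5 CPM in the later libraries and stood at 0.539 and 2.74 CPM at dorsal closure, a fitted change of -6.7 ± 0.84 log2 units (adjusted p = 0.00042 in edgeR). Both genes had their highest library at germ band extension. Without dorsal closure replicate 1 their changes were -6.08 and -5.6, and without replicate 2 they were -9.28 and -8.27.

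MDOA015431 did the reverse. It was at 0.573 to 7.42 CPM in the blastoderm libraries and 0.0242 to 0.333 CPM in the later ones, and at 1007 and 332.9 CPM at dorsal closure, a fitted change of 11.39 ± 0.99 log2 units (SE; adjusted p = 7.3e-05 in edgeR). MDOA012334 went from 0.244 to 2.22 CPM in the blastoderm libraries to at most 0.214 CPM in the later ones and to 226 and 21.6 CPM at dorsal closure, a fitted change of 10.06 ± 1.03 log2 units (adjusted p = 0.00012 in edgeR). The later libraries, gastrula and then germ band extension, held 5, 14, 26 and 1 reads of MDOA015431 and 5, 0, 17 and 3 of MDOA012334. The size of both changes therefore rests on few reads and depends on the prior count. The lowest blastoderm library was 1.72 and 1.14 times the highest later library, so MDOA012334 separated only narrowly. The dorsal closure libraries differed several-fold in both genes. Without dorsal closure replicate 1 and 2 in turn, the change of MDOA015431 was 9.91 and 12.49 and that of MDOA012334 was 7.9 and 11.26. Without gastrula replicate 1 these genes were at 10.76 and 11.82, and MDOA015431 was at 12.42 without gastrula replicate 2 and 13.37 without germ band extension replicate 1. Of the 4 genes with the largest changes between the periods, MDOA003795 stayed high at 101.9 and 70.1 CPM at dorsal closure, MDOA006673 fell to 10.8 and 5.55 CPM (log2 fold change -2.98 ± 0.56, edgeR adjusted p = 0.0026), and MDOA007880 was at 0.0874 and 0.736 CPM. MDOA010389 rose slightly, to 1.7 and 0.502 CPM (log2 fold change 1.68 ± 0.43, edgeR adjusted p = 0.0091).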

How the data were processed

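RNA from whole embryos was sequenced as paired reads of 100 bp from libraries with a 200 bp insert, per the labels' protocols. Each deposited file lists raw read counts by gene, made with STAR and HTSeq per the submitters' processing notes. For versions, genome build, annotation and strand setting the sources used here give nothing, so overlapping, antisense and near-identical genes are uncertain. Of all reads in the 8 libraries, 10.52% to 23.93% lay outside genes, 5.309% to 10.31% had several alignments and 0.3527% to 0.661% were ambiguous. These rows, and 2 of the same kind that hold 0 reads, were left out of library sizes and tests.

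Counts of the 8 libraries were filtered with filterByExpr by stage and scaled by TMM, with factors of 0.785 to 1.33, and CPM used these sizes. Dorsal closure was scaled to the same reference library. The quasi-likelihood fit of edgeR 4.0.16 (R 4.3.3, robust dispersions) had 1 coefficient per stage and a replicate block (3 residual degrees of freedom). The later-period contrast was the mean of gastrula and germ band extension minus the mean of both blastoderm stages. Dorsal closure was tested in a fit of all 10 libraries (11286 genes, 4 residual degrees of freedom). Printed fold changes include the prior count of edgeR; each standard error divides the unshrunken change by the root of F. Level classes used thresholds of 1 and 10 CPM, chosen after the data were seen.

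The labels give every stage the replicate numbers 1 and 2 without saying that they mark a batch. The gap between replicates of a stage, in log2(CPM + 0.5), was correlated across genes for each of the 6 stage pairs (r of 0.482 to 0.731; pairing was taken as given over 0.1). The common biological coefficient of variation was 0.385 with the block and 0.638 without. No 2 of the 8 libraries agreed within sampling noise (lowest chi-square per degree of freedom 204 over 28 pairs).

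The groups and lists of genes were chosen with earlier results of these data known. Identifiers were named by size of change, at most 2 rises and 2 falls per contrast, among separated genes that passed the test with a mean of at least 20 CPM where high and at least 10 counts where low. For dorsal closure these were falls of higher genes and rises of lower genes. A gene already named was skipped. Alternatives were scaling by total counts, by DESeq2 size factors or by upper quartile, omitting the filter, a stricter filter, DESeq2 1.42.0, limma-voom (limma 3.58.1), no block, all 10 libraries, a 2-group design, a minimum fold change, a 2-fold gap and leaving out each library.

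On data simulated for the later-period contrast (9749 genes, 200 of them changed, with means of at least 5 CPM), edgeR recovered 34 of 100 genes changed 2-fold and 99 of 100 changed 8-fold, and 8 of its 141 calls were unchanged genes. The simulated data held no difference between replicate series or between stages of a period. Far fewer genes changed in them than were called in the real data, so these rates need not hold for the real calls.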

Additional observations from a re-analysis of the deposited data

Results flagged for a closer look

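Of 36 groups of 4 libraries examined for a value far from the others, 1 stood out. Chance flags about 1 group in 20, so 1 of 36 is no more than chance gives. Each group joined the 2 stages of a period. MDOA003795, the gene with the largest rise into the later period, was at 0.271 CPM in cellular blastoderm replicate 2, against 0.0122 CPM in cellular blastoderm replicate 1 and no reads in both syncytial blastoderm libraries. The 12 reads behind this value set the highest blastoderm level of the gene. Its log2 fold change was 12.87 without that library and 10.17 without cellular blastoderm replicate 1, with an edgeR adjusted p of at most 0.02 when any 1 library was left out.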

How the results depend on the processing

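Without the replicate block 1274 genes rose and 1094 fell, 155 higher genes had risen and 37 lower genes had fallen by cellular blastoderm, and 163 higher and 198 lower genes fell at dorsal closure. Of the separated genes 1058 higher and 891 lower ones still passed the test. Counting differences between stages of a period as spread (the 2-group design) gave 1121 rises and 1441 falls. DESeq2 gave 340 lower genes already down at cellular blastoderm. A gap of at least 2-fold, with no floor on the divisor, left 725 higher and 346 lower genes, including those without reads in the lower period. The other alternatives that kept all libraries of a contrast moved no count by more than 1.5 times. The median change over all tested genes, 0.0419 log2 units with TMM, was 0.225 with DESeq2 size factors and -0.2 with total counts. Of the 1411 higher genes, 1411 and 1200 still separated under these scalings, as did 1012 and 1184 of the 1243 lower ones, and 1 higher gene changed sign with total counts.

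Leaving out each library in turn gave 1537 to 2261 rises and 1458 to 2398 falls (1458 without gastrula replicate 2), and 1465 to 1972 higher and 1303 to 1667 lower separated genes. Already at cellular blastoderm, 208 to 244 higher genes had risen and 39 to 108 lower genes had fallen. At dorsal closure 268 to 495 higher genes rose and 166 to 198 fell, and 181 to 393 lower genes rose and 193 to 264 fell. A left-out library leaves its stage with 1 library, assumed to vary like the others, and fewer samples. Counts of separated genes were retaken on the same scaled CPM, so leaving out a library can only raise them. Their range therefore cannot show a loss from the 1411 higher and 1243 lower genes. The causes were not tested further. The 12 named genes kept their direction, though not their size, in all 148 pairs of a named gene and an alternative setting of its contrast. They were picked as the largest changes that passed in these data, so this stability is no independent support. With the 2-group design MDOA003795, MDOA006673, MDOA010389 and MDOA007880 were at 9.34, 7.84, -9 and -8.91 log2 units, and with limma-voom the first pair was at 10.2 and 9.26. Depth limits levels near 0.139 CPM in syncytial blastoderm replicate 1.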
